A study of Mus musculus with 4 samples.

Results

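The distal accessible sites described here were 27872 of the 74695 intervals in the authors' merged peak list of sorted mouse brain parenchymal macrophages. They were chosen as intervals on chromosomes 1 to 19 that combined 4, 5 or 6 library-level peaks (subpeaks). The centre of each also lay more than 1000 bp from both ends of every protein-coding gene and at most 100000 bp from a protein-coding gene body. They made up 37.3% of all merged intervals and 51.7% of the 53930 distal intervals of any subpeak number. The 4 libraries were MDM 1, MDM 2, YSM 1 and YSM 2, with 2 in each group. MDM is taken to stand for monocyte-derived macrophages, named in the title. The abbreviation YSM is used as it stands, without an expansion. All 4 libraries shared the genotype Ms4a3-Ai9 and the treatment DR-3x, which the labels do not explain. Ms4a3 is active in progenitors that give rise to granulocytes and monocytes, and Ai9 is the usual name of a Cre-dependent red fluorescent reporter allele. The sources used here do not give the ages of the mice, the sorting gates, any pooling of animals, or whether each library was a separate animal. No value per library was used, so there is no replicate error, and depth per library is unknown.

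ATAC-seq uses the Tn5 transposase to insert sequencing adapters into open chromatin, so that pile-ups of fragments mark accessible DNA. Accessible sites away from gene ends are often enhancers, which bind transcription factors and act on promoters at a distance. In macrophages, lineage factors such as PU.1 open a common set of enhancers, and further factors add sites that depend on the tissue and on the origin of the cell.

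A subpeak number of 4 allows each of the 4 libraries to have contributed a call, but a library could also have contributed several. At 5 or 6, at least 1 library contributed more than 1, if each subpeak is a call of its own. The number was 4 at 23435 sites, 5 at 3145 and 6 at 1292. Width followed it, with a median of 248 bp at 4 subpeaks, 394 bp at 5 and 441 bp at 6, and a range over all sites of 201 to 826 bp. At 116 sites the interval was 201 bp wide, the width of every interval with 1 subpeak. If each call had that width, the calls of such a site coincided to the base. The narrowest site with 5 subpeaks was also 201 bp wide, and how a library gave more than 1 call there is not known.

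Some of these sites were distal to the outer ends of genes and yet lay at annotated transcription starts. RefSeq start windows on build GRCm38.p6, whose chromosomes are those of mm10, each with 250 bases before a start and 50 after it, were available for 25748 genes on chromosomes 1 to 19, in 31396 windows. A window was overlapped by 1469 sites (5.27%), of which 1013 lay at starts of protein-coding genes and 456 at starts of long non-coding RNA genes alone. The share was 1.45% for distal intervals with 1 subpeak, 2.04% with 2, 2.24% with 3 and 10.5% with 7 or more. The authors' YSM list held 9 of these 1469 sites (0.613%) and their MDM list 1 (0.0681%), beside 1.48% and 0.145% of all merged intervals. Of the sites away from start windows, 0.833% and 0.22% were listed.

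The sequences below show what was open at 9 of the 10 listed sites (the site at Tcaf1 held no base before the start) and at 2 sites in neither list, those inside the haematopoietic factor genes Runx1 and Elf1, chosen after their sequences were seen. Each is the part of the 250 bases before the start that lay inside the accessible site, read 5′ to 3′ on the strand of the gene from RefSeq. Capitals mark matches, on either strand, to 6 short motifs: GAGGAA of PU.1, TGANTCA of AP-1, the paired GAAA repeat of interferon regulatory factors, GGGCGG of SP and KLF factors, the CCAAT box and the E box CACGTG.
Adgrg1: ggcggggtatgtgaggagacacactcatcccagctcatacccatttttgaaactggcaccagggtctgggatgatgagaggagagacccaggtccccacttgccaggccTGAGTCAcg
Cdkn2a: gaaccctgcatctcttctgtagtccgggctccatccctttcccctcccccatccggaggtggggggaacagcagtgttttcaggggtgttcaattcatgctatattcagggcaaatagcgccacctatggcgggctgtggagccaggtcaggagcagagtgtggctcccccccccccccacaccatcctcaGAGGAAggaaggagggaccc
Ablim1: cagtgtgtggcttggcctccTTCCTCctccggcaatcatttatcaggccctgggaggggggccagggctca
Nr3c2: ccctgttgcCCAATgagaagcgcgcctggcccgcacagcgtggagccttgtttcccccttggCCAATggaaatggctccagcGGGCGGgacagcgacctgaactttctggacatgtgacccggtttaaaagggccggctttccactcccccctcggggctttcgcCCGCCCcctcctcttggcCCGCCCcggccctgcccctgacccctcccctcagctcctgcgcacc
Ebf3: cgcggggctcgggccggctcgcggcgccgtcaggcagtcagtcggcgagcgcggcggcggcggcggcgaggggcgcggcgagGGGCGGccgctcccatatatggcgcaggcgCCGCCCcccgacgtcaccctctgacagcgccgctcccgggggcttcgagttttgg
Phactr1: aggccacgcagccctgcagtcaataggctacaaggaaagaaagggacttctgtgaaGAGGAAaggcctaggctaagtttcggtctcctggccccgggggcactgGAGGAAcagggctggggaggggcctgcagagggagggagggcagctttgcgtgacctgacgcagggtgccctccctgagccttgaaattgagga
Glrp1: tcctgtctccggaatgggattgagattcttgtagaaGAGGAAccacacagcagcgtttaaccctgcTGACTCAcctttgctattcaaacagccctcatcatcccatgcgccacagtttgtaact
Arhgef18: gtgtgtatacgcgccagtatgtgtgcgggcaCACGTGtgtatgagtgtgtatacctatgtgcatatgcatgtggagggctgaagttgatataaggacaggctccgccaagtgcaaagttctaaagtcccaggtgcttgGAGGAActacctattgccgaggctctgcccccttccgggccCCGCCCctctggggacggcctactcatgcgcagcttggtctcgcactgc
Gm10791: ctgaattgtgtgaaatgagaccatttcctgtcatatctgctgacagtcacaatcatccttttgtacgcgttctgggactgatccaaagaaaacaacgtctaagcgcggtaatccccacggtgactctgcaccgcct
Runx1: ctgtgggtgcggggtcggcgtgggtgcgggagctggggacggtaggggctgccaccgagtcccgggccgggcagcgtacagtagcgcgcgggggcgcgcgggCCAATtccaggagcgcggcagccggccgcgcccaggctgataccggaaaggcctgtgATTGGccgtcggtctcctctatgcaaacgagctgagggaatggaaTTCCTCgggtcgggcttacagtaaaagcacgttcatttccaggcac
Elf1: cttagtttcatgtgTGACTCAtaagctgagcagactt

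The Adgrg1 stretch (chr8:94984149-94984266, plus strand, mm10) belonged to a YSM-listed site inside the gene of an adhesion receptor that is used as a microglial marker. It held 1 AP-1 match and no other motif. The Cdkn2a stretch (chr4:89282193-89282403, minus strand) preceded a start inside the cell-cycle inhibitor gene and held 1 PU.1 match, as did the Ablim1 stretch (chr19:57197632-57197702, minus strand) in an actin-binding protein gene. Phactr1 (chr13:43122641-43122838, plus strand), which encodes a regulator of protein phosphatase and actin, held 2 PU.1 matches. Its site also covered the start of the non-coding gene Gm15813 on the other strand.

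Other YSM-listed starts had a different make-up. The stretch at Nr3c2 (chr8:76902080-76902308, plus strand), the mineralocorticoid receptor gene, held 3 SP and KLF matches and 2 CCAAT boxes. That at Ebf3 (chr7:137314446-137314612, minus strand), an early B-cell factor gene of the nervous system, held 2 SP and KLF matches and was 79.6% G and C. Glrp1 (chr1:88510067-88510190, minus strand) had 1 PU.1 and 1 AP-1 match. Arhgef18 (chr8:3392780-3393007, plus strand), an exchange factor gene, had 1 PU.1 match, 1 SP and KLF match and 1 E box. The single MDM-listed stretch lay inside App, the amyloid precursor gene, at the start of the non-coding gene Gm10791 (chr16:84972075-84972210, plus strand). It held none of the 6 motifs, which says only that these letters were not in this stretch.

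Matches at the 2 unlisted sites are given as examples only. The Runx1 stretch (chr16:92697330-92697579, minus strand) held 2 CCAAT boxes and 1 PU.1 match, and the Elf1 stretch (chr14:79515637-79515673, plus strand) held 1 AP-1 match. Among the 250 bases before the start in all 31396 windows, 23.4% held GAGGAA, 6.77% TGANTCA, 2.98% the interferon regulatory factor repeat, 33.0% GGGCGG, 33.7% CCAAT and 6.02% CACGTG. Among the 1659 windows that overlapped a distal site, the shares were 27.4%, 5.61%, 2.23%, 50.1%, 31.1% and 8.62%. The median G and C content was 52.4% over all windows and 58.8% over those at distal sites, and its part in the motif shares was not tested. Short motifs occur by composition alone, and a match is not a measured binding site.

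The authors' lists of differential peaks held 288 of the distal sites as more accessible in 1 group, by the names of the lists. The YSM list held 229 of them (0.822%) and the MDM list 59 (0.212%). Over all merged intervals the YSM list held 1.48% and the MDM list 0.145%, and over distal intervals of any subpeak number 1.56% and 0.152%. The distal sites thus gave 20.7% of the YSM list and 54.6% of the MDM list. The ratio of YSM-listed to MDM-listed intervals was 3.88 among them and 10.2 over all merged intervals. Subpeak number and list membership come from the same reads, and intervals are not replicates, so these shares describe the lists and were not tested.

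The 2 lists drew on the subpeak numbers in different shares, and both held distal intervals with 4 subpeaks (188 YSM-listed and 44 MDM-listed). Just below the lower limit, distal intervals with 3 subpeaks numbered 6149, with 155 in the YSM list (2.52%) and 5 in the MDM list (0.0813%). With 2 subpeaks 404 of 6865 were YSM-listed (5.88%) and 5 MDM-listed. Within the limits the YSM share was 0.802% at 4 subpeaks, 0.986% at 5 and 0.774% at 6, and the MDM share 0.188%, 0.413% and 0.155%. Just above the upper limit, 4 of 663 distal intervals with 7 subpeaks were in the YSM list and 4 in the MDM list. Intervals of 4 to 6 subpeaks within 1000 bp of a gene end numbered 10877, with 47 YSM-listed and 5 MDM-listed, and those beyond 100000 bp from a gene numbered 1568, with 25 and 16.

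**Figure D1:**
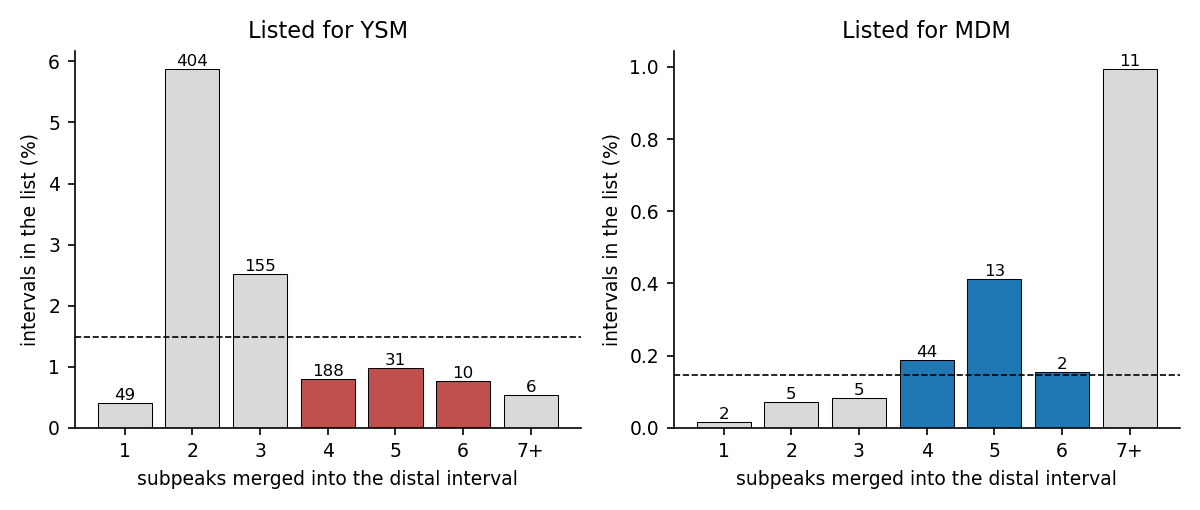
Share of distal intervals in the authors' YSM list (left) and MDM list (right), in percent, by the number of subpeaks merged into the interval. Coloured bars are the distal sites with 4 to 6 subpeaks, numbers on the bars count listed intervals, and dashed lines give the share over all 74695 merged intervals (1.48% and 0.145%). The YSM share was greatest at 2 subpeaks and the MDM share at 7 or more.

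The distal sites were assigned to the nearest protein-coding gene body and fell to 8950 of 21887 genes (40.9%). A single site was found at 3615 genes, and 456 genes held 10 or more. These 456 genes, 5.09% of the genes with a site, held 6310 sites (22.6%). Of the sites, 16964 (60.9%) lay inside their gene. The 10908 outside had a median distance of 14632 bp to the gene, and 1561 of them were farther than 50000 bp.

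Among the 20 genes with most sites, several encode transcriptional regulators. Bach2, a transcriptional repressor, held 35, of which 26 were inside the gene and 9 outside, over a span of 434982 bp. Zfhx3, a large zinc-finger homeobox factor, also held 35, all inside. Etv6, an ETS-family repressor needed for blood stem cells, held 25, with 24 inside, at 10.2 sites per 100 kb of gene. Zmiz1, a coactivator, had 25 sites and the greatest density of the 20 genes with most sites, at 11.0 per 100 kb inside the gene. Hivep3 and Foxn3 held 25 each, and Foxp1, a forkhead repressor of monocyte differentiation, held 24. Arid1b, a subunit of the BAF chromatin remodelling complex, held 28. With sites assigned to the nearest gene end instead, Zmiz1 held 15.

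The other genes have varied roles. Nav2, a neuron navigator gene, held 35 sites, and Lpp, a focal adhesion protein, 33. Elmo1, which with Dock proteins activates Rac during engulfment of dying cells, held 30 of its 64 merged intervals, 28 of them inside. Asap1, an activator of Arf GTPase hydrolysis, held 27, Tns3 (a tensin) 26, Snx29 (a sorting nexin) 26, Akap13 (an anchoring protein) 25 and Abr (a regulator of Rac) 23. Tmcc3 held 26 and Ttc28 23. Ldlrad4, an inhibitor of TGF-beta signalling, held 24, all inside, and 10 by nearest gene end.

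Ly86 was the shortest of these 20 genes. It encodes MD-1, the partner of the Toll-like receptor homologue RP105 on the cell surface. The gene is 73692 bp long and had 23 sites, of which 4 lay inside and 19 outside, over 265612 bp. When a site was counted for every gene within 50000 bp, Ly86 held 14. The median length of the 20 genes was 350528 bp, against 30646 bp for all genes with a site, so the counts belong to long genes. Ly86 tied at 23 with Maml3, Rad51b and Frmd4a, which the tie rule on density left out.

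**Figure D2:**
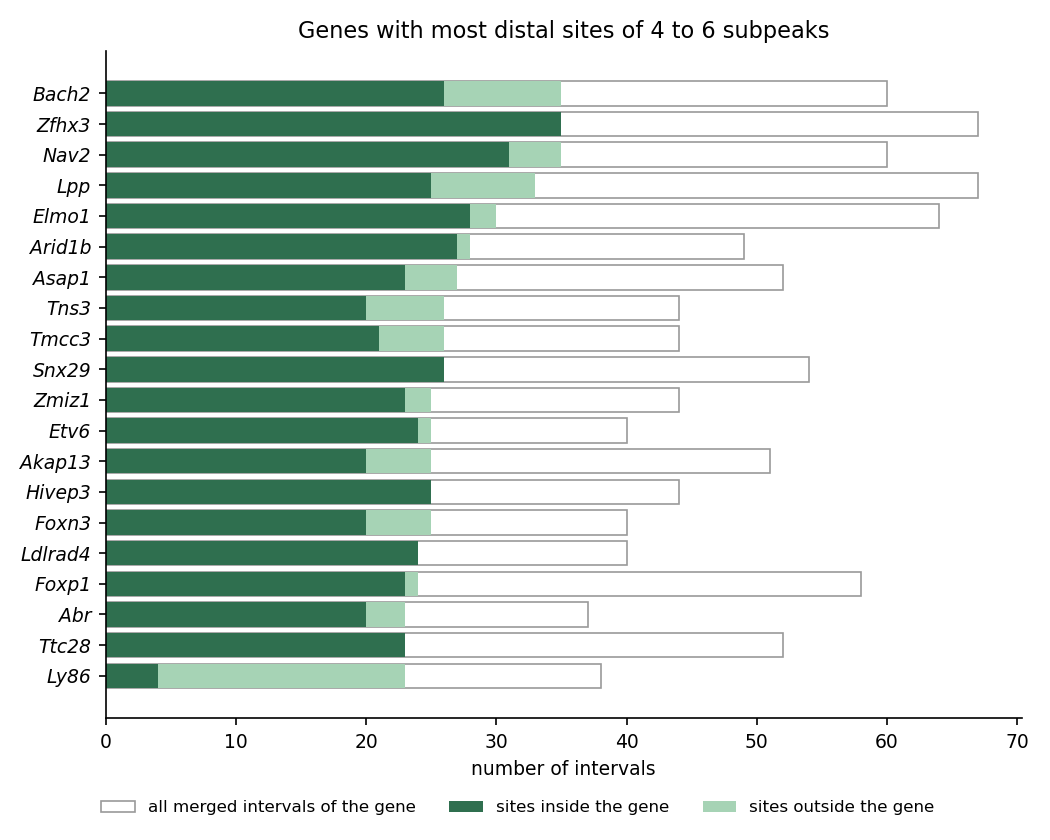
The 20 protein-coding genes with most distal sites of 4 to 6 subpeaks. Dark bars count sites inside the gene, light bars sites outside it, and open bars all merged intervals assigned to the gene. Counts ran from 35 at Bach2, Zfhx3 and Nav2 to 23 at Abr, Ttc28 and Ly86, and Ly86 alone had most of its sites outside the gene.

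Of the 543 sites at the 20 genes, 3 were YSM-listed (0.552%) and 0 MDM-listed, beside 0.822% and 0.212% of all distal sites. No difference from the rest is read from counts this small. The YSM-listed sites were at Zfhx3 (chr8:108901529-108901756), Nav2 (chr7:49544784-49545006) and Foxn3 (chr12:99333359-99333744), with 1 each, all inside the gene. Genes with 10 or more sites held 36 YSM-listed sites (0.571% of their sites) and 18 MDM-listed sites (0.285%). Genes with 1 to 3 sites held 116 (1.12%) and 23 (0.222%). At genes with 4 to 9 sites, 0.687% of 11213 sites were YSM-listed and 0.161% MDM-listed. These shares were not tested.

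**Figure D3:**
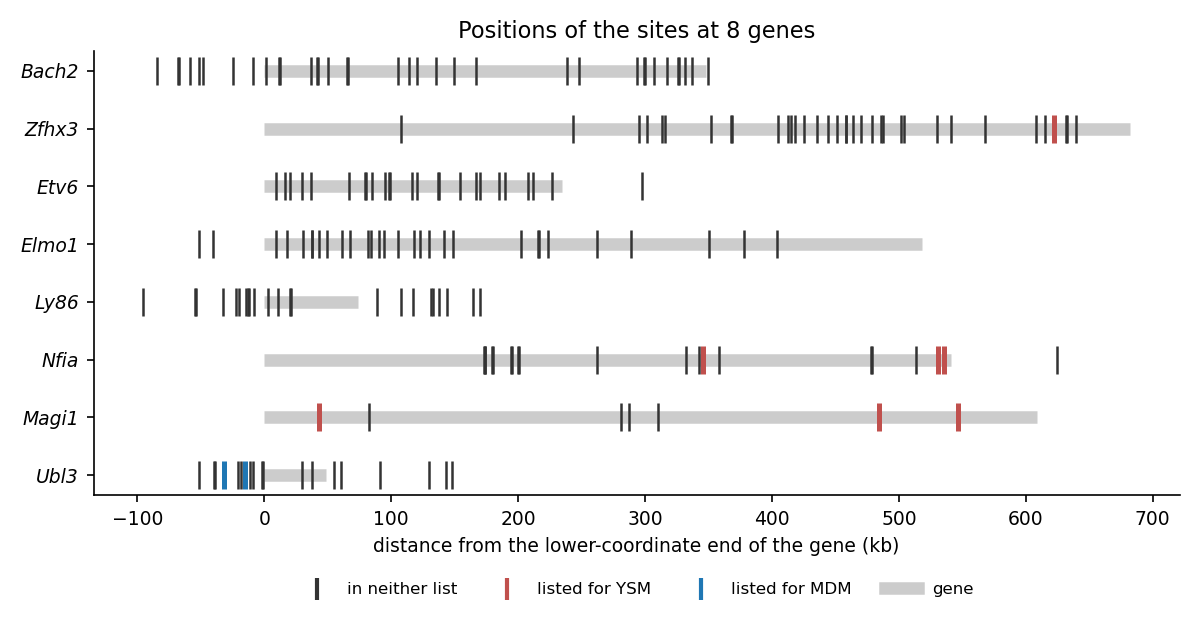
Positions of distal sites at 8 genes, chosen after their values were seen, as distance in kb from the lower-coordinate end of each gene. Grey bars are genes, black ticks sites in neither list, red ticks YSM-listed sites and blue ticks MDM-listed sites. Bach2, Etv6, Elmo1 and Ly86 had no listed site, Nfia and Magi1 had 3 YSM-listed sites each, and Ubl3 had 2 MDM-listed sites outside the gene.

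Sites also stood in runs. With sites chained where the gap was at most 10000 bp, 40.4% stood alone and 16 chains held 10 or more. The number depends on the gap, with 0 such chains at 5000 bp and 218 at 20000 bp. The longest had 15 sites, at Fnbp1 (a membrane-bending F-BAR protein, 75069 bp, all inside) and at Zfhx3 (83422 bp, all inside). Lrrfip1, a nucleic acid sensor, and Capzb, a subunit of the actin capping protein, had chains of 13, and Arhgap25, a Rac inhibitor of phagocytes, 1 of 12. A chain of 11 sites lay wholly outside Zfp36l2, an mRNA-decay factor, over 40512 bp. Chains of 11 also lay at Nfatc2, a calcium-activated factor, Tnfaip8, Sipa1l2 and Lyzl4. The 183 sites in the 16 chains held 2 YSM-listed sites (1.09%, beside 0.822% of all distal sites), at Capzb (chr4:139268419-139268908) and Lyzl4 (chr9:121597059-121597496), and 0 MDM-listed sites. Among the 11256 sites that stood alone, 135 were YSM-listed (1.2%) and 29 MDM-listed (0.258%).

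MDM-listed sites lay at 56 genes. Sema6d, Ubl3 and Kcng2 held 2 each and the other 53 genes 1. Of the 59 sites, 27 (45.8%) were inside their gene, against 60.9% of all distal sites and 69.4% (159) of the YSM-listed ones. Subpeak numbers were 4 at 44, 5 at 13 and 6 at 2.

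Genes of chemoattraction and secreted immune proteins were among the neighbours of MDM-listed sites. A site of 511 bp at chr1:128570261-128570771 lay 17683 bp from Cxcr4, the receptor that holds leukocytes in the bone marrow, and was 1 of 7 distal sites of that gene. A site at chr5:135582432-135582683 lay 9434 bp from Ccl24, an eosinophil-attracting chemokine of border-associated macrophages. The site of Retnla, a marker of alternative activation, was at chr16:48831341-48831568, 11154 bp from the gene. That of Lyz1, a lysozyme gene, was at chr10:117301866-117302070, 9100 bp from it and 19696 bp from Lyz2. Each of these 3 genes had 2 distal sites, 1 of them listed.

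The site assigned to Apoc4 lay in a cluster of apolipoprotein genes. It was at chr7:19683839-19684054, 2486 bp from Apoc4, 6005 bp from Apoc2, 5533 bp from Apoc1 and 12297 bp from Apoe, the main lipid carrier of the brain. The nearest gene is therefore 1 of several that the site could belong to. Irs2, the insulin receptor substrate gene, had 12 distal sites, and its MDM-listed site, of 6 subpeaks, lay 89762 bp away at chr8:11098480-11098903. Nampt, the rate-limiting enzyme of NAD salvage, had its listed site 37282 bp away among 7 sites.

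Signalling genes with an MDM-listed site included exchange factors of small GTPases. Vav3, an exchange factor of immune receptors, had 11 sites, 1 of them listed, inside the gene at chr3:109478475-109478727. Dock5, Fgd4, Arhgef3 and Rasgrp1, also exchange factors, each had 1 listed site, inside the gene. So did Cyfip2 and Lima1, of the actin cytoskeleton. Gpr65, an acid-sensing receptor, had its listed site 43390 bp away. The aryl hydrocarbon receptor gene Ahr had it 91786 bp away. Exchange factor genes were not particular to the MDM list, since YSM-listed sites lay at Arhgef7, Arhgef18, Rapgef5 and Rasgef1b.

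Some MDM-listed sites lay at genes rich in distal sites, as did some YSM-listed sites. Genes with 20 or more sites held 3 MDM-listed and 8 YSM-listed sites among their 1239. The MDM-listed sites at rich genes were as follows. Tbc1d1, a Rab regulator, held 21 sites, Gse1 and Creb5 20 each, Ubl3 19, Ubac2 18, Rnf150 17, App 16, Atxn7l1 15, Armc2 14 and Baz2b 14. Each had 1 listed site except Ubl3, whose 2 listed sites were 31358 and 15174 bp from the gene, at chr5:148473135-148473411 and chr5:148489217-148489697. Both Sema6d sites were also outside, 16880 and 73246 bp away, and Kcng2 had 1 inside and 1 at 7008 bp.

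Further genes also had 1 MDM-listed site. Adgb and Ado held 11 sites each, Gabbr2 (a GABA receptor subunit) and Fhit 9 each, Trappc8 7, and Hepacam2 and Gm9733 5 each. Acta2, Fzd7 (a Wnt receptor) and 1700017B05Rik held 4 each. Ceacam18, Med24, Capsl, Neo1 (the netrin receptor neogenin), Dpp6 and Gm11541 held 3 each. Pik3c3, Agtr1b, Gm28710, Olfr985 and Slfn3 held 2 each. Adat2, Tcerg1l, Gsdma2, Kcnk10, Tm4sf20 and Vmn1r90 held only the listed site. The Med24 site lay 5246 bp from Csf3, the granulocyte colony-stimulating factor gene.

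YSM-listed sites lay at 202 genes, and 0 genes had a site in both lists. Of the 8950 genes with a site, 202 had a YSM-listed site and 56 an MDM-listed site. With so few, nothing is read from the 0. Among intervals of any subpeak number, Fhit had 1 in each list. A single YSM-listed site was found at 177 genes, 2 at 23 genes and 3 at Magi1 and Nfia. Magi1, a scaffold of cell junctions, had 7 distal sites, all inside the gene, of which 3 were listed. A further 8 of its 12 YSM-listed intervals had 3 or fewer subpeaks. Nfia, a nuclear factor I transcription factor, had 20 distal sites, 19 inside, and its 3 listed ones were at chr4:97923934-97924180, chr4:98108838-98109246 and chr4:98113390-98113757. They made up 3 of its 4 YSM-listed intervals.

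At some genes the listed sites were all or most of the distal sites. Klf12, a Krüppel-like repressor, had 2 distal sites, both YSM-listed (chr14:100211104-100211508 and chr14:100224144-100224437), and 7 of its 10 listed intervals had 3 or fewer subpeaks. Tcaf1, a regulator of a cold-sensing channel, had 2 merged intervals in all, and both were listed. Edil3, a secreted integrin ligand that binds dying cells, and the gene models Gm32436 and Ppp1r14bl had 2 of 2 listed, all outside the gene, from 28480 bp (Gm32436) to 85661 bp (Ppp1r14bl) away. Nav3, a neuron navigator used as a microglial marker, Dclk1 (a microtubule-associated kinase), Hnrnpul1 (an RNA-binding protein), Trappc12 (a vesicle-tethering protein) and Wscd1 had 2 of 3. Ablim1, Creb3l2 (a membrane-bound transcription factor of the secretory pathway) and Gxylt1 (a xylosyltransferase) had 2 of 4.

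Several of these pairs were close neighbours that can be pieces of 1 accessible region. The Tcaf1 sites ran from chr6:42692043-42692571 to chr6:42692656-42693069, the Creb3l2 sites from chr6:37419242-37419496 to chr6:37419558-37419774, and the Dclk1 sites from chr3:55353462-55353678 to chr3:55354020-55354258. With sites within 1000 bp of each other counted as 1, 224 YSM-listed sites and 59 MDM-listed sites were left among 25837.

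Listed sites had fewer distal sites around them by the median. The median number of other distal sites within 50000 bp was 4 over all sites (quartiles 2 and 6), 2 for YSM-listed sites (1 and 4) and 3 for MDM-listed sites (1 and 5). No other distal site lay within that range of 23.6% of the YSM-listed, 11.9% of the MDM-listed and 7.78% of all sites. Another interval of the same list, of any subpeak number, lay within 50000 bp of 93 of the 229 YSM-listed sites and of 5 of the 59 MDM-listed sites. The longer list has more intervals to be near, and this was not adjusted for.

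**Figure D4:**
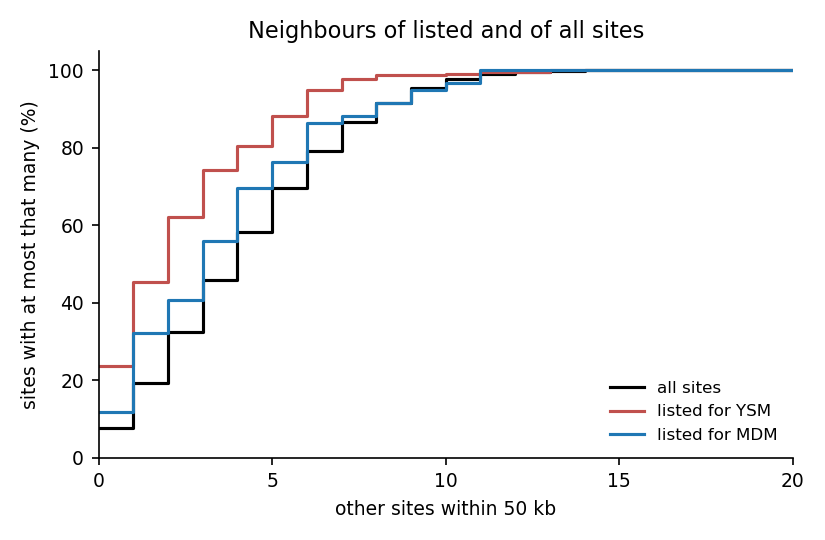
Cumulative share of sites, in percent, by the number of other distal sites within 50 kb, for all 27872 sites (black), the 229 YSM-listed (red) and the 59 MDM-listed (blue). Medians were 4 for all sites, 2 for YSM-listed sites and 3 for MDM-listed sites.

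The 18 gene lists, 608 genes of which 604 matched the annotation, held 2426 distal sites at 474 genes. Some lists shared genes, so their sites are not separate. Csf3r was in the microglial identity and neutrophil lists, and Etv6 in the transcription factor and progenitor lists. Over all protein-coding genes, 40.9% had a distal site and the median was 0. The sums depend on assignment. With a site counted for every gene within 50000 bp, microglial identity genes held 232 sites in place of 127, monocyte genes 167 in place of 99 and border-associated macrophage genes 101 in place of 63. Inflammation genes then held 333, phagocytosis genes 278, chemokine and purinergic receptor genes 187, disease-associated and lysosomal genes 172, antigen presentation genes 169 and interferon response genes 143. Cell cycle genes held 165 in place of 96, and neuron, glia and vessel genes 121 in place of 77. Macrophage transcription factor genes had a site in 77 of 83 (92.8%), with a median of 6 and 568 sites. The most were at Bach2, Etv6 and Foxp1. Irf8, Smad3 and Runx1 held 15 each, Mef2c 13, Cebpb 10 and Spi1, which encodes PU.1, 2. Immune receptor and cytoskeletal signalling genes had the greatest median of the 18 lists, 7, with a site at 53 of 60 genes. Dock4 (a Rac exchange factor) and Arhgap24 held 21 each and the kinase gene Prkce 17. Lyn, a Src-family kinase of myeloid receptors, held 15. Of these 458 sites 0 were listed, beside 0.822% YSM-listed and 0.212% MDM-listed over all distal sites. Among all merged intervals, Myo1e and Rapgef2 had 1 YSM-listed interval each, and nothing is read from the 0.

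Of the 35 microglial identity genes, 29 had a site, with a median of 3. Bin1 (an endocytic adaptor) held 13, the kinase gene Sgk1 9 and Fcrls 8, while P2ry12, the ADP receptor, held 7, Siglech 5, Cx3cr1 4, Csf1r 3 and Tmem119 1. The list held 4 YSM-listed sites of 127 (3.15%, beside 0.822% of all distal sites), 2 at Nav3 and 1 each at Adgrg1 and Jam2, and 0 MDM-listed ones. These lay at only 3 genes, and nothing particular to the list is read from so few. Over the genes of all 18 lists the YSM-listed share was 0.495%. Sall1 and Sall3, factors of microglial identity, had 0 distal sites of 4 to 6 subpeaks, and all of their YSM-listed intervals, 7 and 5, had 3 or fewer subpeaks. All 5 YSM-listed intervals at Marco, a scavenger receptor gene, and all 7 at Slc1a3, an astrocyte glutamate transporter gene, also had 3 or fewer.

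Of the 35 genes of monocytes and monocyte-derived macrophages, 25 had a site, with a median of 2. Runx3 held 16, Ahnak 8, and Emb and Nr4a1 7 each. Ccr2, the receptor for monocyte entry into tissue, and Ms4a7 held 5 each, and Ms4a3 and Vim 0. Its 1 listed site of 99 (1.01%) was the MDM-listed one at Lyz1. Border-associated macrophage genes had a site in 18 of 25. Nrp1 held 12, Dab2 10 and the mannose receptor gene Mrc1 8. The 63 sites of this list held 1 site of each of the authors' lists (1.59% each). These were the MDM site at Ccl24 and a YSM site 5486 bp from Cd209a at chr8:3754366-3754574. Over all distal sites the shares were 0.212% MDM-listed and 0.822% YSM-listed, and nothing is read from single sites.

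Inflammation, TLR and NF-kB genes had a site in 44 of 52 genes, 198 in all, with 15 at Tnfaip8, 13 at Tnfaip3 (the NF-kB inhibitor A20) and 9 each at Irak2 and Nfkbiz. Disease-associated and lysosomal genes had sites at 32 of 34 genes, 97 in all, led by Ch25h with 9 and Cd9 with 7, and by Ank and Hif1a with 6. TGF-beta and BMP genes had sites at 30 of 33 genes, 156 in all, with 17 at the receptor gene Tgfbr2, 15 at Smad3 and 11 at Itgb5. Antigen presentation genes (57 sites, 11 at Cd86, 9 at Cd83 and 6 at Nlrc5) and interferon response genes (61 sites, 11 at Ifngr1, 9 at Ifnar1 and 7 at Ifnar2) followed. These 5 lists held 0 distal sites in either list of the authors, beside 0.822% and 0.212% over all distal sites. Among all merged intervals, Cd14, Smad1, Ltbp3 and Pmepa1 had 1 YSM-listed interval each, and Traf6 and Ifi47 1 MDM-listed interval each. Nothing is read from the 0.

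Phagocytosis, complement and Fc receptor genes held 178 sites, 30 at Elmo1, 15 at Vav2 and 11 at Vav3, where the listed site was. Lipid and cholesterol genes held 110, with 18 at Abca1, the cholesterol exporter gene, 9 each at Abcg1, Lrp1 and Mylip, and the listed site at Apoc4. Chemokine and purinergic receptor genes held 91, with 14 each at Entpd1 and S1pr1, 7 each at P2ry12 and Cxcr4, and the listed site at Cxcr4. Each of these lists held 1 MDM-listed site and 0 YSM-listed ones, beside the same shares, and nothing particular to a list is read from a single site.

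Genes of other cell types had medians of 0 or 1 site, as did border-associated macrophage and interferon response genes, each with a median of 1. Neutrophil genes had a site in 5 of 15 (33.3%), with a median of 0 and 14 sites, at Csf3r (5), Mmp9 (4), Prtn3 and Ltf (2 each) and Mmp8 (1), and Ly6g and S100a8 at 0. Counted for every gene within 50000 bp, they had 51. Lymphocyte genes had a site in 12 of 22 with a median of 1 and 23 sites (69 when so counted), at most 4, at Klrb1c and Ms4a1, followed by 3 at Ncr1, and Cd3e at 0. Neuron, glia and vessel genes had a site in 23 of 32, with a median of 1. Mbp, a myelin gene, held 11, the VEGF receptor gene Flt1 10 and the glutamate transporter gene Slc1a2 7, while Snap25 and Aqp4 held 0. The 77 sites of this list held a YSM site 5472 bp from the myelin gene Mog and an MDM site 14849 bp from Acta2. Each made up 1.3%, beside 0.822% YSM-listed and 0.212% MDM-listed over all distal sites, and nothing is read from single sites. Nearest-gene assignment does not show which gene a site acts on, and the part of other cells in the sorted fractions was not tested.

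Progenitor and cell cycle genes had sites in 12 of 20 and 18 of 30. Among the former, Etv6 held 25, Myc 11 and Lmo2 8, and the YSM-listed sites were at Gata2 (chr6:88184413-88184748, 9310 bp away) and Hlf (chr11:90417985-90418271, 27211 bp away), factors of blood progenitors. Among the latter, Cdk6 held 16 and the cyclin D genes Ccnd1 and Ccnd2 12 and 9, and the YSM-listed site was the one at the internal start of Cdkn2a shown above. The YSM-listed sites were 2 of 75 (2.67%) at progenitor genes and 1 of 96 (1.04%) at cell cycle genes, beside 0.822% of all distal sites. Nothing is read from so few. Rxrg, a retinoid X receptor gene of the transcription factor list, had 1 distal site, YSM-listed, 44140 bp away.

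**Figure D5:**
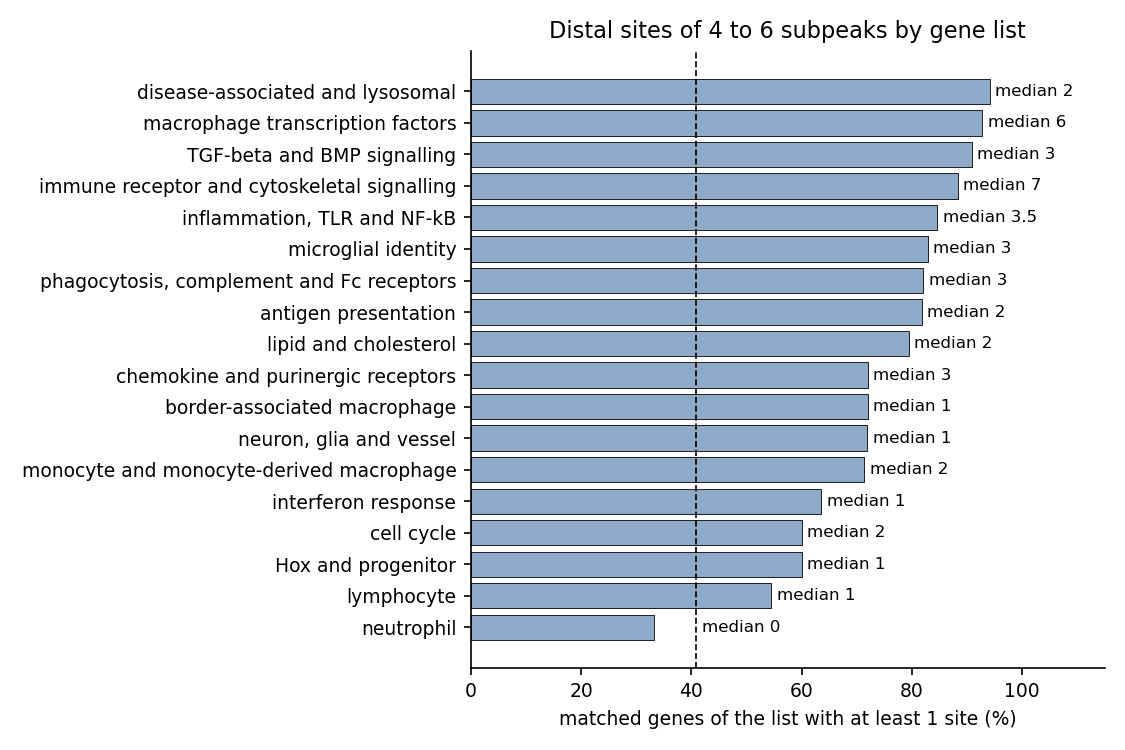
Share of the matched genes of each list with at least 1 distal site of 4 to 6 subpeaks, in percent, with the median number of sites per gene printed at each bar. The dashed line is the share over all protein-coding genes, 40.9%. The greatest share was 94.1%, for disease-associated and lysosomal genes, and neutrophil genes alone lay below the line, at 33.3%. Border-associated macrophage genes (72.0%), monocyte genes (71.4%) and neuron, glia and vessel genes (71.9%) had similar shares. Gene length was not adjusted for.

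By chromosome, the share of distal sites among the merged intervals ran from 35.5% on chromosome 3 to 39.7% on chromosome 11. Among them, the YSM-listed share was between 0.518% (chromosome 12) and 1.87% (chromosome 6, 30 of 1608 sites). MDM-listed sites numbered 6 on chromosomes 5 and 12 and 0 on chromosomes 13 and 17. MicroRNA hairpins of the RefSeq table were overlapped by 17 sites, at 19 of 919 hairpins on these chromosomes, among them Mir9-1 and Mir212.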

How the data were processed

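Accessibility was measured by ATAC-seq in 4 libraries, 2 labelled MDM and 2 YSM. Per the submitters' processing notes, the tools were Bowtie2 2.2.5, Trimmomatic 0.39, HOMER and Picard, with mm10 as the build. Per the file headers, the merged list came from HOMER mergePeaks over 4 peak sets. The sources used here do not give the peak calling settings or the thresholds of the differential lists. The score column of the deposited files was 1 in every merged interval and was not used. All 1212 intervals of the authors' YSM and MDM lists, whose names give DESeq2, equalled a merged interval.

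The number of subpeaks was read from the interval name. Genes came from RefSeq GRCm38.p6 (21887 protein-coding genes, without strand or exons, so exonic and intronic sites were not told apart). The centre of a site was assigned to the nearest gene body, ties to the nearer gene centre. Python 3.11.15 and pandas 2.3.3 were used, and assignment was tested on simulated intervals. No test was run, since intervals are not replicates. Named genes were the 20 with most sites (ties by density), every gene with an MDM-listed site, the 15 with most YSM-listed sites, and per gene list the 3 with most sites (ties included) and those with a listed site; an item that this rule covers is not reported here. Other genes were named for their known roles, and the motifs and start windows were chosen, after values were seen. Sites and lists were chosen with earlier results of these data known.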

Additional observations from a re-analysis of the deposited data

How the results depend on the processing

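No paired analysis was possible because the deposited intervals carry no value per library, so no replicate could be left out either. Of 194 values under an alternative, over 46 results, 171 stayed within 1.5 times the first count or, for shares, within its 95% exact binomial interval, and 23 did not. The binomial range served only as a tolerance and was no test. Sites are not replicates, and the alternatives share many sites with the first set. Restricted to 5 or 6 subpeaks, the set held 4437 sites and the MDM-listed share was 0.338%. With sites counted for every gene within 50000 bp, 956 genes had 10 or more sites, in place of 456, and the gene lists held 3745 sites, in place of 2426; each site then counts for several genes. Chains of 10 or more sites numbered 0 with gaps of at most 5000 bp and 218 with 20000 bp, in place of 16. With an overlap of at least 100 bp, an alternative chosen after seeing the data, 3.87% of sites lay at a start window. Of the 20 genes with most sites, 17 remained with assignment to the nearest gene end, 16 with every gene within 50000 bp, 15 with exactly 4 subpeaks and 18 with close sites counted as 1. The alternatives on place inside genes and on start windows were also chosen after seeing the data.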
